A study of Mus musculus with 4 samples.

Results

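The wild-type H3K27me3 landscape of mouse alveolar macrophages was described from 2 libraries, out of 4 in the series, and all 27095 gene windows of the deposited count table entered it. The members were the 2 libraries labelled wild type, whatever their values, and no genotype was compared. Alveolar macrophages are the resident phagocytes of the airspaces, which clear surfactant and inhaled particles. H3K27me3 was measured by Cut&Tag, in which an antibody tethers a transposase to the mark and the tagged DNA around it is sequenced. C57BL/6-Ly5.1 recipients had been lethally irradiated and then given marrow of which 90% was wild-type Ly5.2 and 10% wild-type Ly5.1, so every haematopoietic donor cell behind these libraries was wild type. Each library came from 100000 alveolar macrophages sorted from lung, with 0.5 µg of antibody against H3K27me3 and paired reads of 36 bp, and the labels call the 2 libraries biological replicates. The sex and age of the mice, whether animals were pooled, and whether the sort parted Ly5.2 from Ly5.1 cells or from remaining host cells are not stated in the labels.

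H3K27me3 is laid down by the Polycomb repressive complex PRC2, whose catalytic subunit is Ezh2 or Ezh1 and whose core also holds Eed and Suz12. The mark is bound by forms of the complex PRC1, and it is removed by the demethylases Kdm6a and Kdm6b. It is known for covering silent genes of developmental regulators that a lineage does not use, for its presence on the inactive X chromosome of female cells, and for its near absence from strongly transcribed genes. In a library from many cells, fewer cells carrying the mark and less mark per cell cannot be told apart.

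The libraries held 2592297 and 2142175 reads over gene windows, with a median of 14 and 12 reads per window. A window was taken as the gene with 3 kb on each side, which the deposited length matches exactly in 11525 of the 27095 windows. Overlaps were worked out from gene positions and are approximate for the others. The level of a window is its counts scaled to library size (CPM) divided by the window length in kb, and pairs of values are given for library 1 and then library 2. Spread evenly, the reads would give 0.844 CPM per kb. A window was called high at 4 times this density or more (3.38 CPM per kb) in both libraries, and low at 0.25 times it or less (0.211 CPM per kb) in both, where it was deep or long enough to be called. Where windows of neighbouring genes overlap, the shared reads were mostly not counted: 70.4% of the 2446 wholly overlapped windows had 0 reads in both libraries, against 2.05% of the 10808 windows that overlap no other. Levels of overlapped genes are therefore uncertain, low calls in them carry no information, and gene lists are described mainly by the windows with under 10% of their length overlapped, of which there were 13971.

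The 3 highest windows of the naming rule with a RefSeq promoter are shown with Pparg, a low window, and Marco, which lies between the thresholds, both alveolar macrophage genes, to show how the sequence at the start of a gene differs among windows of very different level. Pparg and Marco were chosen for printing after their values were seen. Each line runs 5′ to 3′ from 250 bases before to 50 bases after a RefSeq start of the gene on GRCm38.p6. Every CG dinucleotide is in capitals. The Pparg stretch lies wholly inside the gene, which begins at 115360879, so it is not the outermost start as in the other genes. A CG on one strand is a CG on the other.
Bcar1, chr8:111743800-111744099, reverse strand: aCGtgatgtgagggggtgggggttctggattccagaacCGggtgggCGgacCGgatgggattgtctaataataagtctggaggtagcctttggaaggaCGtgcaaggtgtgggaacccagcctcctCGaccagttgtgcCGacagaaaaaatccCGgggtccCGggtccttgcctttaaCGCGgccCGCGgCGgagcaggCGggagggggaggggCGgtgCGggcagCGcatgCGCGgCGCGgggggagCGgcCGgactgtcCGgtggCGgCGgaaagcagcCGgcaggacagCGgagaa
Barx1, chr13:48662786-48663085, forward strand: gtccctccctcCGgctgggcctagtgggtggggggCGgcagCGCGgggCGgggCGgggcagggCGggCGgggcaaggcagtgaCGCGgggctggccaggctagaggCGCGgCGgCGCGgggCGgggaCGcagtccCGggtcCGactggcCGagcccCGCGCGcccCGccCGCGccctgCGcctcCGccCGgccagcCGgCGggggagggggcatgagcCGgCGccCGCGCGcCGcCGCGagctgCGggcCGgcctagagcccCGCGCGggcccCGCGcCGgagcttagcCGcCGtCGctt
En1, chr1:120602237-120602536, forward strand: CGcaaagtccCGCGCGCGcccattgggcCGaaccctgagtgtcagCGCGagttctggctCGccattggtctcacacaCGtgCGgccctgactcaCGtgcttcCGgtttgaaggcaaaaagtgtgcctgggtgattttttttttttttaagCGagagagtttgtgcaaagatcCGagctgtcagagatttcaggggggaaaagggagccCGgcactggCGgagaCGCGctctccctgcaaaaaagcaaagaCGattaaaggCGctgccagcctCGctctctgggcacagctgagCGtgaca
Pparg, chr6:115360894-115361193, forward strand: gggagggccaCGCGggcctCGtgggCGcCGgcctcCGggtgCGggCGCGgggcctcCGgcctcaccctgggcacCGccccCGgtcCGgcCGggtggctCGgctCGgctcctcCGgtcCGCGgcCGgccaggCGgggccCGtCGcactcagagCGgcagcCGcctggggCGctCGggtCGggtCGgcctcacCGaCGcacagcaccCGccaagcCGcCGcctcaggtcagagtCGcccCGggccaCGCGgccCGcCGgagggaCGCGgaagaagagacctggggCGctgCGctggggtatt
Marco, chr1:120504975-120505274, reverse strand: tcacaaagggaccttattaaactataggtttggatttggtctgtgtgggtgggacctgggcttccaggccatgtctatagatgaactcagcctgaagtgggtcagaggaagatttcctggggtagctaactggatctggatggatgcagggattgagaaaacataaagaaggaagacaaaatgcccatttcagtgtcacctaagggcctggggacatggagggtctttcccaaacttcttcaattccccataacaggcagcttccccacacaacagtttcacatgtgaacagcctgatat
Over these 300 bases, the promoters of Bcar1, Barx1 and En1 held 29, 50 and 23 CG, while that of Pparg held 44 and that of Marco 0. At least as many CG as in Bcar1 were found in 12.8% of the promoters matched to a window, as many as in Barx1 in 0.844%, as many as in En1 in 21.6% and as many as in Pparg in 2.15%, and 94.2% held at least 1. Pparg had more CG than Bcar1 and En1, with levels of 0.0856 and 0.121 CPM per kb against 36.6 and 28.9 in Bcar1. A comparison of CG content between all high windows and the rest was void, because only 73.5% of the 1395 protein-coding high windows had a promoter in the table, under the 80% needed.

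The mark was concentrated in few windows, and the most heavily marked genes were mostly developmental transcription factors. Among protein-coding windows with under 10% overlapped, leaving out predicted genes and repeated receptor families and ranking by the lower of the 2 libraries, Bcar1 came first with 3734 and 2434 reads, or 36.6 and 28.9 CPM per kb (mean 32.7 ± 5.46 SD, n = 2). It encodes an adaptor protein of cell adhesion signalling and lies on chromosome 8 at 111710474 to 111743849. Barx1, a homeobox gene of stomach and jaw development, stood next at 36.5 and 27.8 CPM per kb from 897 and 565 reads. En1, a homeobox gene of the midbrain and hindbrain, had 32.9 and 25.7 CPM per kb. Library 1 was above library 2 in all 3, and both libraries were far above the threshold for a high window.

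The others of the 20 highest windows in this ranking lay between 18.99 CPM per kb, for Hand2 in library 2, and 31.3 CPM per kb, for Irx3 in library 1. Irx3, which patterns the spinal cord and limb, had 31.3 and 25.5 CPM per kb. Nkx2-5, a heart factor, had 22.5 and 21.9, the closest agreement among the 20. The heart and placenta factors Hand1 and Hand2 had 26.7 and 19.3 CPM per kb and 21.8 and 18.99. Wnt10a, a secreted ligand, had 25.2 and 22.2. Ranked by the mean of both libraries instead, which gives a partly different 20, 15 of the 20 highest protein-coding windows with little overlap belonged to the 11 lists of developmental factors, as did 34 of the 50 highest and 61 of the 100 highest, while 162 of all 10025 such windows did. The single highest window of the table, at 123 and 102 CPM per kb from 8182 and 5602 reads, has an identifier (100861531) that is not in the reference table and is left unnamed.

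**Figure D1:**
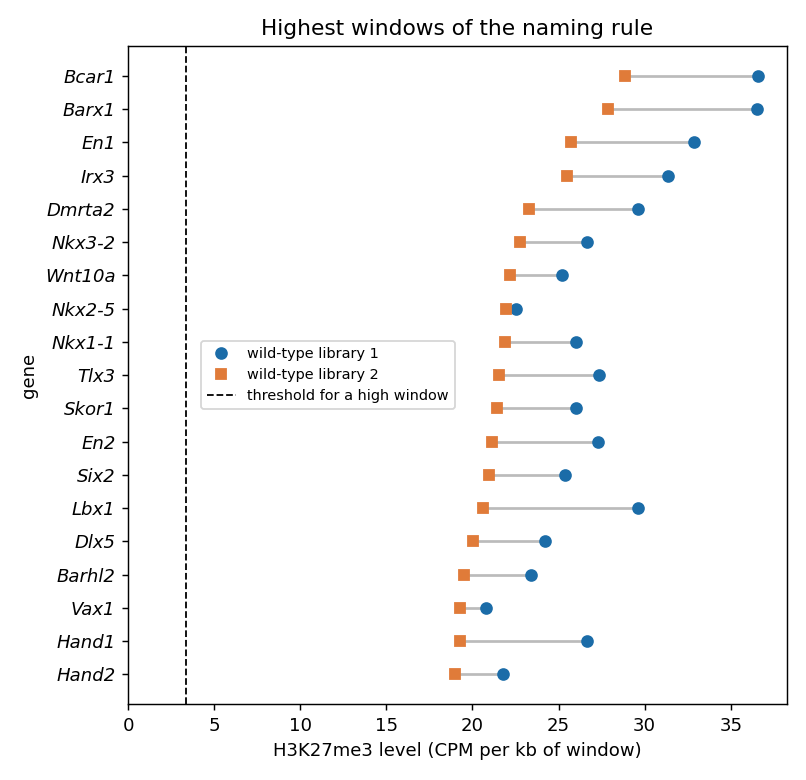
H3K27me3 level (CPM per kb of window, horizontal axis) of 19 of the 20 highest windows of the naming rule, one line per gene. Circles are wild-type library 1, squares wild-type library 2, and the dashed line is the threshold for a high window at 3.38 CPM per kb. Every gene shown lies above the threshold in both libraries, and library 1 is above library 2 in each.

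High in both libraries were 1570 windows, 5.79% of the 27095, and 1395 of them were protein coding. They covered 3.50% of the summed window length and held 28.9% of the reads of library 1 (95% Wilson interval 28.9% to 28.99%) and 26.2% of those of library 2 (26.1% to 26.2%). Such intervals cover counting error only. Ranked in library 1, the top 10% of windows held 39.97% of the reads of library 2, and ranked in library 2 they held 42.5% of the reads of library 1. The top 1% held 6.40% and 7.60% in the same exchange. Library 1 alone called 1723 windows high and library 2 alone 1656, of which 153 and 86 were high in that library only. At the edge, Cacna1h, a calcium channel gene, was just inside with 3.82 and 3.38 CPM per kb, and Cd40, a receptor of immune cells, was just outside with 3.94 and 3.37.

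Low in both libraries were 8015 of the 22515 windows that could be called low, 35.6%. They made up 35.1% of the window length and held 4.27% and 4.60% of the reads. Among windows with under 10% overlapped, the background was 899 high of 13971 (6.43%) and 3389 low of 12535 (27%), and the median levels were 0.383 and 0.413 CPM per kb. Windows under 10 kb were counted as callable only with at least 10 reads, too many for a low call at that length. Of the 7583 windows under 10 kb 0 were low, so shares of low windows, here and in the lists, are understated. The lowest named windows of at least 100 kb on autosomes included Fam168a, with 21 and 11 reads over 140.9 kb (0.0575 and 0.0364 CPM per kb), and Smchd1, a chromatin protein gene that acts in X inactivation, with 17 and 16 reads over 136.9 kb (0.0479 and 0.0546).

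Autosomal levels had 2 modes. Among the 6515 autosomal windows with at least 50 reads in all and under 10% overlapped, the lower mode lay near 0.136 CPM per kb, the upper near 1.83, and the dip between them near 0.229. The minimum of 50 reads admits windows at the lower mode only when they are long, so the relative heights of the modes depend on it.

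**Figure D2:**
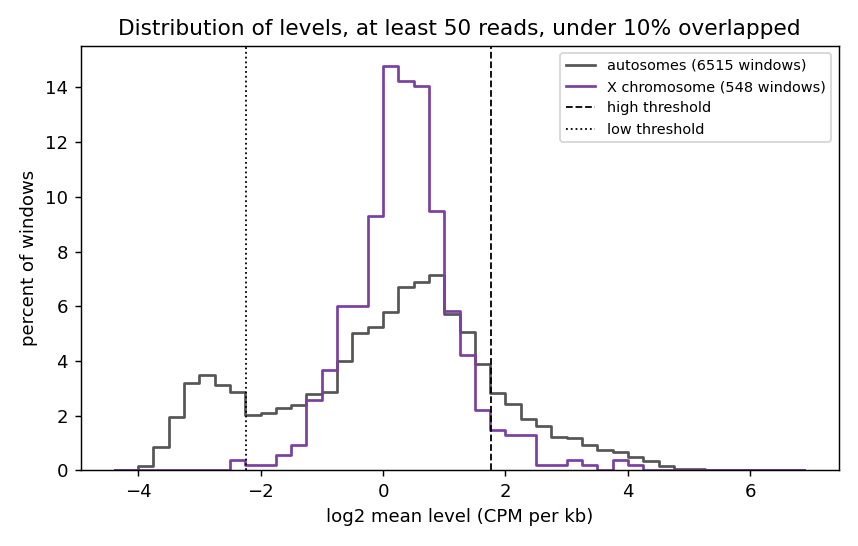
Share of windows (percent, vertical axis) by log2 mean level in CPM per kb (horizontal axis, bins of 0.25) for autosomes and the X chromosome, windows with at least 50 reads and under 10% overlapped. Autosomes show a lower mode near 0.136 and an upper near 1.83 CPM per kb, and the X chromosome shows 1 mode. The dashed and dotted lines are the high and low thresholds, 3.38 and 0.211 CPM per kb.

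Homeobox factors had the highest list medians. Across the 11 lists of developmental factors, 194 of 270 genes (71.9%) were high and 12 were low, and they made up 12.4% of all high windows. All 9 little-overlapped Nkx factors were high, with medians of 16.9 and 15.3 CPM per kb, among them Nkx3-2 (26.7 and 22.8), a skeletal factor, and Nkx6-1 (19.7 and 17.0), a factor of pancreas and spinal cord. Nkx2-1, the master factor of lung epithelium, stood at 21.3 and 18.3 CPM per kb with 31.8% of its window overlapped. All 7 little-overlapped Hox genes were high as well, at medians of 17.5 and 14.3, led by Hoxb13 (23.8 and 18.6). Of all 39 Hox genes 32 were high, although the median member had 54.8% of its window overlapped. Hoxa9, a regulator of blood progenitors, had 17.1 and 11.97 CPM per kb with 46.4% overlapped.

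Of the Dlx and Irx factors with Six2 and its relatives, 9 of 10 little-overlapped windows were high, at medians of 16.5 and 14.6 CPM per kb, the exception being Irx6 at 2.48 and 2.56. Of the other homeobox factors 34 of 40 were high, at 14.3 and 12.8, and of the LIM-homeobox factors 6 of 7, at 13.3 and 12.3, with Lmx1a outside at 2.81 and 2.80. Low levels within this class were rare: none of these 3 groups had a low window with under 10% overlapped. Pou3f4 was the least marked of the other homeobox factors with little overlap, at 1.09 and 0.725 CPM per kb from 20 and 11 reads.

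The tissue-specific bHLH factors, which include the neural and muscle master regulators, were high in 23 of 30 windows, at medians of 9.59 and 9.03 CPM per kb. The neural Neurog1 had 24.4 and 18.8 CPM per kb and Tal1, a factor of blood stem and red cells, 22.4 and 17.9. The muscle factors Myf5 and Myf6 were at the other end, at 0.209 and 0.304 CPM per kb for Myf5 from 5 and 6 reads, and with 0 and 2 reads for Myf6. T-box factors were high in 7 of 10 windows at medians of 7.29 and 6.53, Gata factors in 3 of 4 at 10.5 and 8.38, and paired-box factors in 4 of 4 at 4.67 and 4.07. Pax5, which commits cells to the B lineage, had 3.84 and 3.41 CPM per kb.

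Within the Gata factors, Gata2, a factor of blood progenitors and mast cells, had 19.5 and 18.5 CPM per kb, and Gata6, which defines peritoneal macrophages, had 11.2 and 8.73. Gata4, a heart and gut factor, had 9.73 and 8.02. Gata1, the red cell factor on the X chromosome, was lower at 1.51 and 1.44 and was not high. Sox factors were high in 8 of 14 little-overlapped windows, from the neural Sox21 at 22.9 and 16.4 CPM per kb and the endothelial Sox17 at 18.1 and 17.8 to Sox5 at 0.366 and 0.361.

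Forkhead factors lay at both extremes, with 14 high and 7 low of 28 little-overlapped windows and medians of 2.85 and 2.92 CPM per kb. Foxa2, a factor of endoderm, had 23.5 and 17.3 CPM per kb, Foxb2 20.4 and 17.1, and Foxd3, a factor of pluripotent and neural crest cells, 16.4 and 14.7. The insulin-responsive and broadly expressed Foxo3 stood at 0.115 and 0.125, Foxk1 at 0.0870 and 0.0982 and Foxj3 at 0.0849 and 0.0880. Foxa2 and Foxo3 were thus far apart in both libraries.

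The secreted Wnt, Bmp, Fgf and Hedgehog ligands were high in 18 of 34 little-overlapped windows, at medians of 4.54 and 4.19 CPM per kb. Ihh, a cartilage signal, had 17.2 and 14.4 and Wnt1, a midbrain signal, 12.2 and 8.56, while Fgf14 had 0.176 and 0.225. Potassium channels were high in 14 of 67 windows at medians of 1.56 and 1.57, and neurotransmitter receptors in 5 of 55 at 0.915 and 0.953. Kcnh2, a heart channel, led those with no overlap at 9.83 and 8.02 CPM per kb, and the serotonin receptor Htr1a had 7.46 and 6.44. The metabotropic glutamate receptor Grm7 was low at 0.119 and 0.164. Over all little-overlapped windows 6.43% were high, and the count of neurotransmitter receptors was near that share.

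Large families of sensory receptors were outside the marked class. Olfactory receptors had medians of 0.222 and 0.269 CPM per kb over 1018 little-overlapped windows, of which 1 was high, and vomeronasal receptors had 0.185 and 0.248 over 340, of which 0 were high. Such windows are short, and only 492 and 213 of them were counted as callable, of which 13 and 47 were low. Those under 10 kb that were callable through their reads cannot be low, so these counts do not measure how often such genes are low. Keratins, structural proteins of epithelia, had medians of 1.54 and 1.68, with 1 of 33 high, too few to tell from the 6.43% of all little-overlapped windows. Their levels ran from Krt86 at 4.04 and 3.77 CPM per kb to Krt19, which alveolar macrophages also express, at 0.174 and 0.126 from 5 and 3 reads.

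Broadly expressed genes lay in the lower part of the range. No proteasome, respiratory chain or ribosomal protein gene was high, against 5.79% of all windows. With under 10% overlapped, 9 of 13 proteasome genes, 7 of 12 respiratory chain genes and 4 of 12 ribosomal protein genes that could be called were low. The share over all little-overlapped windows that could be called was 27%, and the ribosomal count was near it. Psmd14, a deubiquitinating subunit of the proteasome, had 18 and 23 reads, 0.0733 and 0.113 CPM per kb. Most windows of ribosomal protein genes were overlapped (median 73.1% of the window), and their values rest on few reads.

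**Figure D3:**
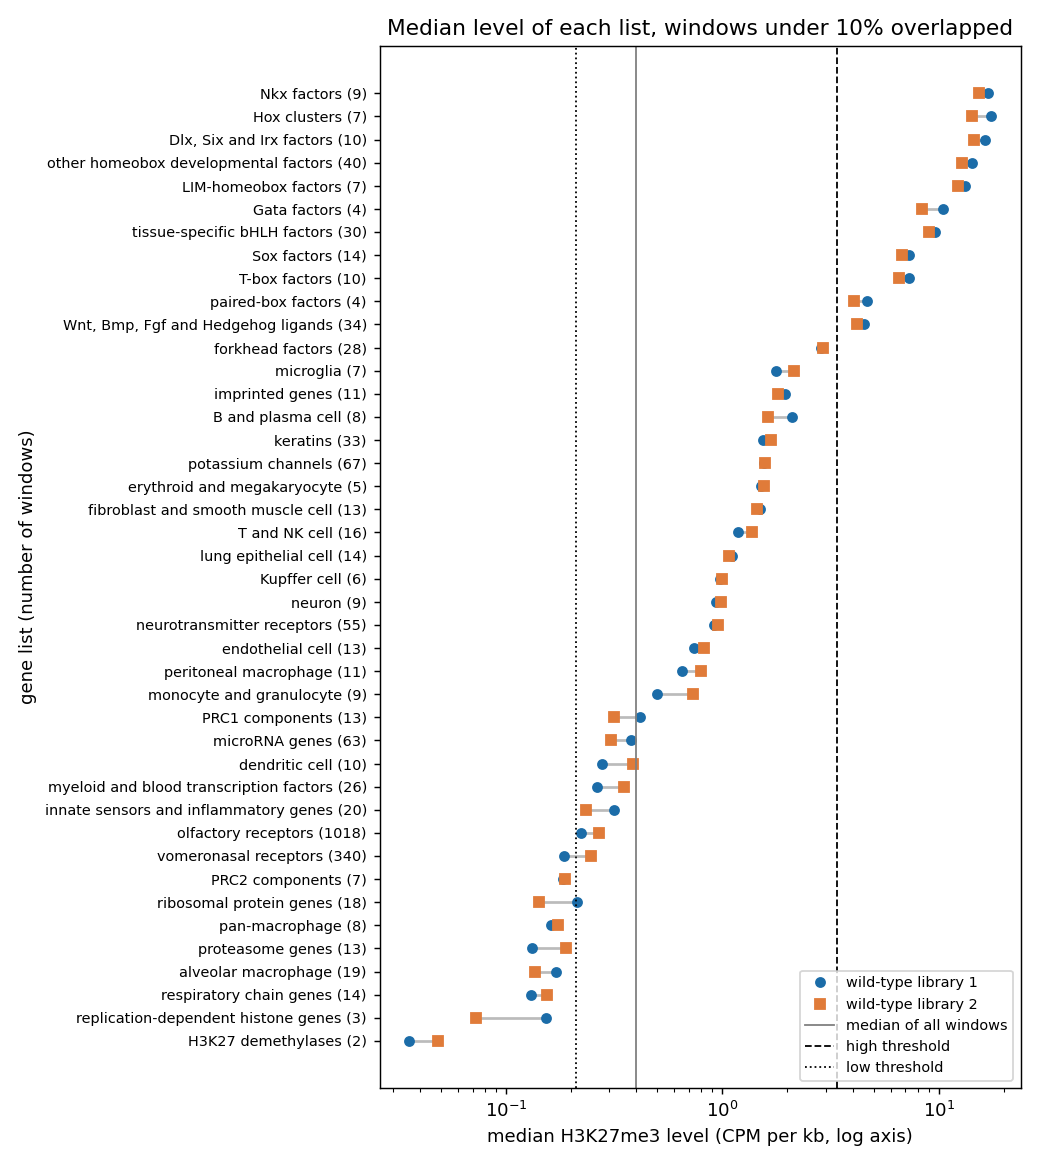
Median H3K27me3 level of each gene list (CPM per kb, log horizontal axis) over its members with under 10% of the window overlapped, whose number is in brackets. Circles are wild-type library 1 and squares library 2. The solid line marks the median of all such windows, the dashed and dotted lines the high and low thresholds. Lists of developmental factors lie right of the dashed line except the forkhead factors. Left of the dotted line in both libraries lie the alveolar macrophage, pan-macrophage, proteasome, respiratory chain, histone, PRC2 and H3K27 demethylase lists.

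Genes that define alveolar macrophages carried little of the mark. Of the 24 genes 0 were high, too few genes to tell from the 5.79% of all windows. With under 10% overlapped, 10 of the 15 that could be called were low, against 27% of all such windows. The medians over 19 windows were 0.171 and 0.136 CPM per kb, against 0.383 and 0.413 over all little-overlapped windows. Pparg, the nuclear receptor that sets alveolar macrophage identity, had 30 and 35 reads over 135.2 kb (0.0856 and 0.121). Siglecf, a surface lectin used to sort these cells, had 2 and 2 reads (0.0548 and 0.0664). Mrc1, a mannose receptor, had 0.0959 and 0.0903, Itgax, the CD11c integrin, 0.171 and 0.138, and Lpl, a lipase, 0.119 and 0.115.

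Marco, a scavenger receptor, was the highest of the list at 0.538 and 0.536 CPM per kb from 51 and 42 reads, above the median of all windows but under the even density. Car4, a carbonic anhydrase, had 14 and 5 reads (0.378 and 0.163), so the libraries were on either side of the low threshold. Summed over all 24 windows, the alveolar macrophage genes held 346 and 245 reads, 0.181 and 0.155 CPM per kb.

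Pan-macrophage genes had medians of 0.161 and 0.175 CPM per kb with 4 of 7 low, a small count, against 27% of all such windows. Among the low ones were the phagocytosis receptor Mertk (0.170 and 0.180) and Adgre1, the F4/80 antigen (0.106 and 0.107). Lamp2, a lysosomal protein encoded on the X chromosome, stood apart with 173 and 131 reads, 1.16 and 1.07 CPM per kb. The receptor gene Csf1r had 28 and 8 reads, 0.342 and 0.118 CPM per kb, with 18.6% overlapped. The myeloid master factor Spi1 had 15 and 14 reads, 0.232 and 0.262 CPM per kb.

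Genes that mark macrophages of other tissues ranged widely, with 2 of 11 little-overlapped windows high in the peritoneal list, 0 of 6 in the Kupffer cell list and 2 of 7 in the microglia list. Over all such windows 6.43% were high, and counts this small do not set these lists apart from them. In the peritoneal list, Gata6 was joined by Alox15, a lipoxygenase, at 8.31 and 6.93 CPM per kb, whereas Fn1, the fibronectin gene, was low at 0.0419 and 0.127 from 8 and 20 reads. In the microglia list Sall3 had 12.8 and 10.5 and Tmem119 4.52 and 5.25, whereas Cx3cr1, a fractalkine receptor, was low at 0.121 and 0.182. Sall1, a defining factor of microglia, had 1.25 and 1.32 with 38.9% overlapped. The Kupffer cell lectin Clec4f had 2.81 and 3.64 and was above the high threshold in library 2 only.

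Markers of other cells that a lung sort could hold were mostly between the thresholds. Little-overlapped medians were 1.10 and 1.07 CPM per kb for lung epithelial genes, 0.738 and 0.825 for endothelial, 1.5 and 1.45 for fibroblast and smooth muscle, 1.18 and 1.36 for T and NK cell and 2.10 and 1.63 for B and plasma cell genes. Every one of these medians was above that of all little-overlapped windows, 0.383 and 0.413. Dendritic cell genes, outside these 5 lists, went the other way, with medians of 0.278 and 0.387. Over all 18 endothelial windows, overlapped ones included, the medians were 1.87 and 2.12. Summed over all windows of each list, the levels ran from 1.51 to 2.38 CPM per kb across these 5 lists, against 0.181 and 0.155 for alveolar macrophage genes. Individual markers were low all the same, such as Pecam1 of endothelial cells at 0.115 and 0.139 and Cdh1 of epithelial cells at 0.201 and 0.141. The mark does not measure expression, so these values do not count contaminating cells, whose part was not tested.

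Some genes of the myeloid lineage itself were among the marked. Of 26 little-overlapped myeloid and blood transcription factors, 3 were high and 4 of the 23 that could be called low were low. Over all little-overlapped windows the shares were 6.43% and 27%, and counts this small do not set the list apart from them. The high ones included Runx3 (15.1 and 13.1 CPM per kb, from 2471 and 1776 reads) and Myb (5.44 and 4.74), a factor of blood progenitors. Maf, a leucine zipper factor, had 2.80 and 2.81. In contrast Irf8 (0.132 and 0.160), Ikzf1 (0.141 and 0.161), Bach1 (0.162 and 0.116) and Zeb2 (0.0512 and 0.127, with 10.7% overlapped) were low in both libraries.

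Of the 20 little-overlapped windows of inflammatory genes 3 were high, a small count, against 6.43% of all such windows. Of the 18 that could be called low 5 were low, a share near the background of 27%. Il12a, a subunit of interleukin 12, had 11.7 and 12.1 CPM per kb, the anti-inflammatory cytokine Il10 5.34 and 3.99, and Nos2, the inducible nitric oxide synthase, 4.23 and 4.43. Il12b, the partner subunit of Il12a, had 1.95 and 1.68. The sensors Tlr2, Tlr3, Tlr8, Nod2 and Nlrp3 were low, with 0.140 and 0.20 for Nlrp3 and 0.123 and 0.178 for Nod2. Among granulocyte and monocyte genes S100a9 was high at 3.96 and 5.31, and the receptor Ccr2 was low at 0.0893 and 0.0360 from 3 and 1 reads.

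The genes of the PRC2 complex itself were mostly little marked, and those of PRC1 lay near the level of all windows. Of 14 PRC2 genes 0 were high, too few genes to tell from the 5.79% of all windows. With little overlap 5 of 7 were low, against 27% of all such windows that could be called. They included Ezh2 (0.0600 and 0.0924 CPM per kb), Suz12 (0.0656 and 0.0993) and Eed (0.203 and 0.188). Epop was the highest PRC2 gene at 3.24 and 2.47 CPM per kb, with 18.1% overlapped. The 13 PRC1 genes with little overlap had medians of 0.417 and 0.317 CPM per kb, and 6 were low and 1, Cbx8, was high at 6.14 and 6.66, and its neighbour Cbx2 had 2.79 and 2.85. Both encode readers of the mark. The demethylase Kdm6a was low at 0.0534 and 0.0761.

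Imprinted genes, expressed from 1 parental copy, had 2 high and 1 low of 11 little-overlapped windows. Over all such windows the shares were 6.43% and 27%, and counts this small do not set the list apart from them. Dlk1 had 5.30 and 4.61 CPM per kb and Cdkn1c, a brake on the cell cycle, 4.87 and 4.45. Grb10 (3.43 and 3.29) lay at the threshold. Counts from both copies are summed, so the copies cannot be told apart. Among biotypes, 7.02% of 12131 little-overlapped protein-coding windows were high, 3.66% of 901 long non-coding RNA windows and 1.36% of 294 pseudogenes.

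The X chromosome had the highest median level of all chromosomes. Its 1164 windows had medians of 0.943 and 0.990 CPM per kb, against 0.217 and 0.230 for autosomes, 4.34 and 4.30 times as much. The autosomes' own medians ran from 0.174 to 0.291 in library 1 and from 0.184 to 0.305 in library 2. For protein-coding windows with little overlap the medians were 1.08 and 1.13 on X and 0.325 and 0.355 on autosomes, 3.32 and 3.18 times as much. Windows that overlap no other gave a mean ratio of 2.59, from 1.03 and 1.07 on X against 0.389 and 0.420, and the highest autosome stood at 0.721 and 0.785 there. X was thus above all 19 autosomes under each choice, while the size of the difference depended on it.

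The X levels spanned a narrower range than those of autosomes, with few low windows and a smaller share of high ones. Of X windows 2.84% were high and 2.89% low, whereas low windows ranged from 30.4% to 43.0% across the autosomes and high ones from 4.34% to 8.86%. Of the 657 little-overlapped coding windows on X, 6.54% had levels below 0.2 CPM per kb, against 38.1% of 11380 on autosomes. The 10th percentile of these windows was 0.305 CPM per kb on X and 0.0899 on autosomes, while the 90th was 2.28 on X and 2.80 on autosomes, so the low end was higher on X and the top lower. Along X, medians of 20 Mb segments ran from 0.578 and 0.655 in the last, with 33 windows, to 1.36 and 1.45 between 60 and 80 Mb.

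Some X genes with well-known roles, chosen after their values were seen, show the level. Rps4x, a ribosomal protein gene with no overlap, had 30 and 19 reads, 1.12 and 0.856 CPM per kb, and the 44 little-overlapped autosomal genes of the ribosomal, proteasome and respiratory lists had medians of 0.146 and 0.147. Hprt, a purine salvage enzyme, had 1.18 and 1.33, Msn, a linker of membrane and cytoskeleton, 1.27 and 1.39, and the macrophage oxidase subunit Cybb 0.731 and 0.780. All 4 were above the autosomal median in both libraries, whereas the translation factor gene Eif2s3x, at 0.296 and 0.218, was below the autosomal coding medians.

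A few X genes were low against this level. Kdm6a was the lowest coding window of at least 20 kb with little overlap, with 17 and 20 reads over 122.7 kb (0.0534 and 0.0761 CPM per kb), followed by the RNA sensor Tlr8 (0.114 and 0.121) and the demethylase Kdm5c (0.221 and 0.149). Next came Cpxcr1 (0.183 and 0.208), the protocadherin gene Pcdh11x (0.180 and 0.218), Diaph2 (0.192 and 0.227), the glycine receptor gene Glra2 (0.214 and 0.282) and Pir (0.246 and 0.264), and then Eif2s3x. Ddx3x, an RNA helicase gene, had 0.386 and 0.541. Ftx, a non-coding RNA of the X inactivation centre, had 0.0840 and 0.122. Kdm6a, Kdm5c, Eif2s3x and Ddx3x are known as genes that escape X inactivation in mouse, and Ddx3x was named for that role and not for its rank. The 109 windows of the Y chromosome held 66 and 63 reads in all, among them Uty with 7 and 7. The sex of the mice is not given in the labels, and its part in the X level was not tested.

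**Figure D4:**
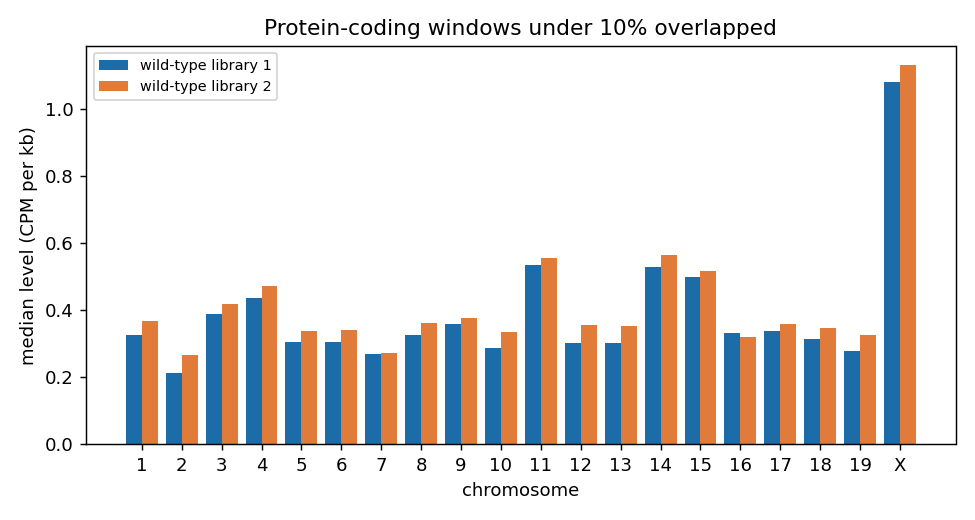
Median H3K27me3 level (CPM per kb, vertical axis from 0) of protein-coding windows with under 10% overlapped, by chromosome, in wild-type library 1 and library 2. The X chromosome stands at 1.08 and 1.13, and the autosomes range from 0.212 to 0.534 in library 1 and from 0.267 to 0.564 in library 2.

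High windows lay next to each other in places. With windows over 50% overlapped left out, 47 runs of at least 3 high neighbours held 167 windows, 12.4% of the 1350 high windows considered. The longest was the Hoxc cluster on chromosome 15 (102921131 to 103146828), with 10 windows from Hoxc13 to D930007P13Rik at medians of 14.4 and 11.8 CPM per kb. The next were 8 windows in the Hoxb cluster on chromosome 11, at 11.1 and 10.3, and 7 on chromosome 1 (74754342 to 74951672) from Wnt6 over Wnt10a to Ihh, at 17.2 and 14.4.

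A run of 3 on chromosome 2 held Evx2, Hoxd13 and Hoxd1, at 15.7 and 12.8. Gimap5, Gimap3, Gm7932, Aoc1 and Doxl1 formed a run of 5 on chromosome 6 at 6.07 and 4.33 CPM per kb, where the Gimap genes encode lymphocyte GTPases. Foxq1, Foxf2 and Foxc1 lay in a run of 4 on chromosome 13, and Pdlim4, P4ha2 and the growth factor gene Csf2 in a run of 4 on chromosome 11. Where 2 neighbouring windows were under 20 kb apart, a high window was followed by another in 24.3% of 482 cases, against 8.19% of windows high at that spacing. At gaps of 100 to 500 kb it was 7.63% of 131, against 6.86%. Levels of neighbours correlated across pairs (Spearman rho 0.281 under 20 kb and 0.0275 at 100 to 500 kb), and neighbouring windows share a library and local chromatin, so the pairs are not independent.

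Long genes were seldom high. The share of high windows was 8.26% for windows of 10 to 20 kb, 2.75% for 100 to 200 kb and 0 of 315 for 400 kb or more. Among windows that overlap no other the first of these shares was 11.3%. A level averages over the whole gene, so a marked promoter in a long gene raises it less. Of windows over 200 kb, 5 were high: Chn2, Samd4, Rap1gap2, Nhsl2 and Gabbr2, with Chn2, a Rac regulator gene, at 7.92 and 7.03 CPM per kb over 267.9 kb. Wnk2, a kinase gene, had 19.6 and 17.0 CPM per kb over 117.7 kb, from 5987 and 4297 reads, the highest level of the windows of 100 to 200 kb.

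The 2 libraries ranked the windows in much the same way. Over the 19265 windows with at least 10 reads in all, log2 CPM per kb correlated at r = 0.947 (Spearman rho 0.943), a correlation across windows, which are not independent. It was 0.518 for windows with 10 to 19 reads, 0.849 for 20 to 49 and 0.998 for 1000 or more, so the rank of a window with few reads is loosely fixed. The common biological coefficient of variation, the spread between libraries beyond counting error, was 8.40% (edgeR). For windows with 1000 reads or more, the central 95% of log2 ratios ran from -0.25 to 0.33, and for those with 10 to 19 reads from -2.04 to 1.93.

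An exact two-sided binomial test of each window against the library totals, with Benjamini-Hochberg adjustment, called 377 of 19265 windows different between the libraries (1.96%), and 2677 had an unadjusted p below 0.05. The test compares these libraries and not conditions, and its p covers counting error only, with each read taken as an independent molecule, so replicate spread alone can give calls. Of the 208 windows higher in library 1, 159 (76.4%) were high windows, with a median level of 9.36 CPM per kb and a median log2 ratio of 0.38. Of the 169 higher in library 2, 0 were high, the median level was 0.498 and the median window 80.5 kb. Among all 19265 tested windows 8.15% were high, the median level was 0.503 CPM per kb and the median window 26.4 kb.

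The ratio followed the level. Windows below 0.125 times the even density had a median log2 ratio of -0.07 (library 1 over library 2), those at 0.25 to 0.5 times -0.12, those at 4 to 8 times 0.09 and those at 8 times or more 0.19. Library 1 had 14.9% of all its reads in the tested windows at 8 times or more and library 2 13.0%. The contrast between marked and unmarked windows was thus larger in library 1. Bcar1, Wnk2, Srcin1 and Pax6 were among the 5 windows of lowest p higher in library 1, with 13.2 and 10.7 CPM per kb for Srcin1, a neuronal signalling gene, and 12.4 and 9.18 for Pax6, the eye factor (40.9% overlapped). The 5 of lowest p higher in library 2 were the long genes Dmd (0.972 and 1.08), Adgrb3 (0.145 and 0.216), Lrp1b (0.283 and 0.339) and Adamts12 (0.617 and 0.848) and the shorter Agxt2 (0.547 and 1.14). In all but Agxt2 the libraries differed by less than 2-fold, and 100 of the 377 calls exceeded 2-fold.

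**Figure D5:**
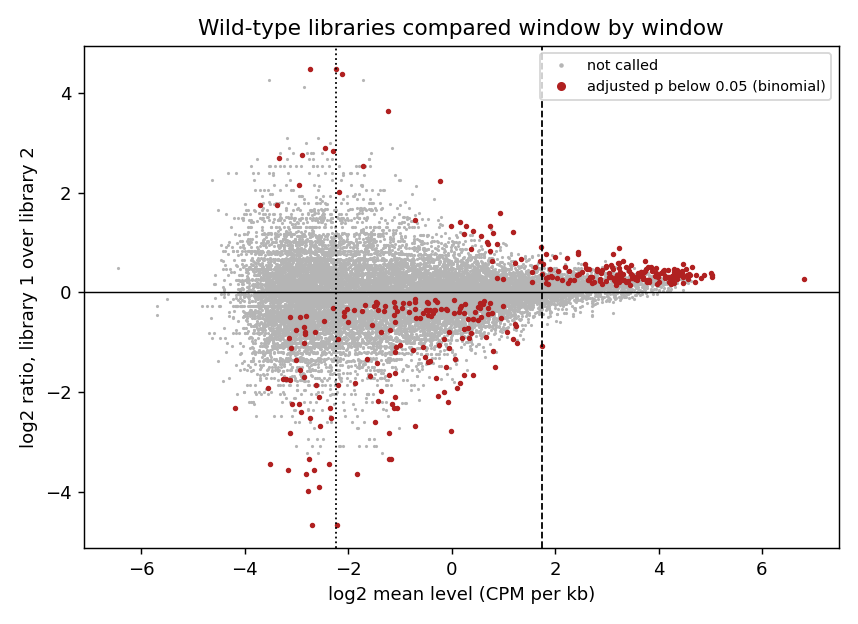
Log2 ratio of library 1 over library 2 (vertical axis) against log2 mean level in CPM per kb (horizontal axis) for the 19265 windows with at least 10 reads. Red points are the 377 windows called by the binomial test, the dashed line is the high threshold and the dotted line the low threshold. Called windows right of the dashed line lie above 0, and spread widens to the left where reads are few.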

How the data were processed

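The authors deposited a table of whole-number read counts per gene window, of which the 2 wild-type columns were used and the 2 columns of the other genotype were not. Reads were counted with featureCounts on mm10, per the submitters' processing notes. How reads were aligned and duplicates handled, and with which counting options, was not given in the sources used here. For 11525 windows the deposited length equals the gene span on GRCm38.p6 plus 3 kb on each side, and symbols and positions were taken from RefSeq for the 25204 identifiers (93.0%) found there. The others held 1.88% and 1.87% of the reads.

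Levels are CPM of the column total per kb, with no other scaling. Overlap is the part of a gene's RefSeq span with 3 kb on each side that is shared with other genes taken likewise. Where the deposited length differs from this span, the overlap is approximate. Libraries were compared by an exact binomial test (scipy 1.17.1) over windows with at least 10 reads, tested on simulated data, and the spread was estimated with edgeR 4.0.16 under R 4.3.3 with an intercept only. Correlations used log2 values with a pseudocount of 0.5 reads. Marker and gene lists (43), thresholds and the naming rule were chosen with earlier results of these data known. The rule takes the 20 highest little-overlapped protein-coding windows without predicted genes and repeated receptor families, the 3 highest and 2 lowest members of each list, the 5 lowest p in each direction, the 6 longest runs, the 8 lowest long windows and 12 preset genes. The text gives a selection. It also names list members outside the rule, mostly to show the range within a list, and X-linked genes, which were chosen after their values were seen. The rule for printed promoters also held Csf1r, Plet1 and Psma7. Plet1 and Psma7 have windows that are mostly overlapped, so Pparg and Marco were printed instead. Results for a few genes are not reported here.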

Additional observations from a re-analysis of the deposited data

How the results depend on the processing

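No paired analysis was possible because only 1 group was described and the 2 wild-type libraries form no pair with another group. Leaving out a library left high windows at 1656 to 1723, low windows at 8949 to 9237, runs at 52, lists with a high median at 10 and the X to autosome ratio at 4.30 to 4.34. A threshold of 6 times the density gave 929 high windows and 17 runs, and 3 times gave 90 runs. A threshold of the density divided by 6 gave 5177 low windows, and windows with under 10% overlapped, an alternative added after seeing the data, held 3389. Runs of at least 5 numbered 4. Windows that overlap no other held 736 high windows and 198 differing between libraries, put 35.5% of the reads in the top 10% against 41.2% as the mean over all windows, gave an X to autosome ratio of 2.59 and raised the high share at 10 to 20 kb to 11.3%. These alternatives keep fewer windows. Protein-coding windows with under 10% overlapped, also added, gave an X ratio of 3.25. The correlation was 0.959 with a pseudocount of 2, 0.937 without a minimum and 0.983 at a minimum of 50 reads. The coefficient of variation was 7.74% at that minimum, 7.93% in the top decile and 8.58% with TMM factors. No alternative run reversed a result. The alternatives for promoter CG content were not run, since that comparison was void. Depth limits the low end: a window with few reads in both libraries has a loosely fixed level, and 7830 windows had under 10 reads in all. With 2 libraries, an SD has 1 degree of freedom.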
